A study of Rattus norvegicus with 9 samples.

Results

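The neuropeptide genes Calca, Calcb, Tac1, Sst, Nppb, Nmb and Grp, which encode peptides known from the pain and itch pathways, were followed through RNA-Seq of rat dorsal root ganglia (DRG). They were picked by gene symbol, and all 7 were found among the 20413 genes of the table. The animals were male Sprague Dawley rats 8 to 10 weeks old. CPIP rats had 3 h of ischemia of the right hind paw under a tight O-ring, followed by reperfusion, as a model of complex regional pain syndrome type I, and Sham rats had the same anesthesia with a cut, loose O-ring. CPIP+EA rats were CPIP rats that also received electroacupuncture (EA) daily, 10 sessions of 30 min at 100 Hz, at ST36 and BL60 on both sides. The ipsilateral L4–6 DRGs were collected on day 10 from 3 rats per group, which gave 9 libraries. No group with needles but without current was analysed here, so the effect of current and that of needling and handling cannot be told apart.

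Values are FPKM, fragments scaled per transcript length and per library depth, so that levels of different genes can be set side by side. The table gives no read counts, so the counting error behind a single value is unknown. Neuronal identity of the tissue was visible in every library, with 8 of 8 pan-neuronal markers tested and a summed level of these markers between 9765 and 12257 FPKM. CPIP+EA replicate 3 stood apart. It had the highest summed neutrophil markers, 515.61 FPKM against 26.54 to 208 FPKM in the other libraries, and the highest erythroid markers, 2346.91 FPKM against 244.83 to 1403.42 FPKM. It also had the lowest summed nociceptor markers, 193.08 FPKM against 264.88 to 336.96 FPKM, and values that moved by more than 1.5 times without this library are given both ways for the members.

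Sensory neuropeptides are made in the cell bodies of small DRG neurons, packed into dense-core vesicles and released both in the spinal cord and in the skin. Calcitonin gene-related peptide (CGRP), from Calca and Calcb, widens blood vessels and acts through the receptor Calcrl with its partner Ramp1, and substance P, from Tac1, acts through Tacr1 and makes vessels leak. Both are known mediators of neurogenic inflammation. Somatostatin and natriuretic peptide B, from Sst and Nppb, mark a class of itch neurons in the mouse, and the bombesin-like peptides neuromedin B and gastrin-releasing peptide, from Nmb and Grp, act in itch circuits.

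No member passed the threshold of an adjusted p under 0.01 with a 1.5-fold change in any of the 3 comparisons. The closest to it was Nmb, which was lower in all CPIP libraries than in any Sham library, and Tac1 showed the same separation with a smaller difference. The remaining tested members differed by less than the spread between libraries could resolve. Of the 7 members, 6 were tested, each with a mean level of at least 0.1 FPKM, and Grp was listed at 0 in all 9 libraries.

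The levels spanned more than 2 orders of magnitude. Calca was the highest member in all 9 libraries and stood at rank 47 of the 17187 genes tested by its mean level. Tac1 followed at rank 317, Calcb at rank 627, Sst at rank 1092, Nmb at rank 1516 and Nppb at rank 12018. Calca exceeded Tac1 by 2.81- to 3.59-fold within a library, Tac1 exceeded Calcb by 1.45- to 2.23-fold, and Calcb exceeded Sst by 1.22- to 2.06-fold. Sst and Nmb were the neighbours whose order was not constant, since Sst was higher in 8 of 9 libraries and in Sham replicate 2 they stood at 72.09 and 72.13 FPKM. The members together made up 0.206% to 0.311% of the summed FPKM of a library, and Calca alone made up 56.3% to 61.1% of that peptide total.

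**Figure D1:**
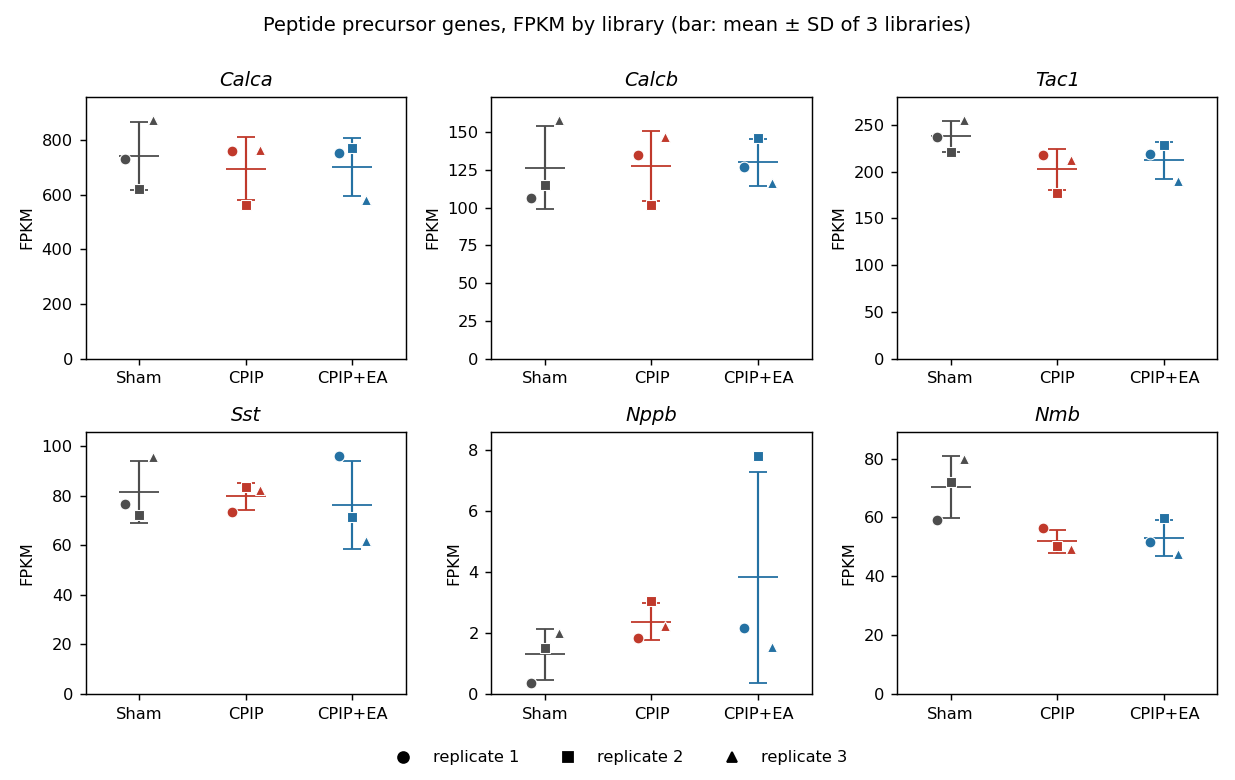
FPKM of the tested neuropeptide genes in each library, by group, on a separate linear axis for each gene, with the mean and SD of the 3 libraries as bars. The Nmb values of the CPIP libraries, 49.11 to 56.44 FPKM, all lie under the Sham values, 59.11 to 79.93 FPKM, while the groups of Calca, Calcb and Sst overlap.

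Calca, which encodes calcitonin as well as αCGRP, did not differ detectably between the groups. Its levels were 731.16, 621.88 and 871.78 FPKM in Sham, 761.12, 562.52 and 762.69 FPKM in CPIP, and 752.22, 771.43 and 578.93 FPKM in CPIP+EA. The lowest libraries of the groups were Sham replicate 2, CPIP replicate 2 and CPIP+EA replicate 3, and the 3 ranges overlapped. The means were 742 ± 125, 695 ± 115 and 701 ± 106 FPKM (SD, n = 3 each). The log2 fold change on the log2(FPKM + 0.5) scale was −0.09 for CPIP versus Sham and 0.01 for CPIP+EA versus CPIP (limma adjusted p = 0.962 and 0.998). Without CPIP+EA replicate 3 the latter was 0.15, and CPIP+EA versus Sham was 0.05 in place of −0.08. Calca values are per gene, so that transcripts for calcitonin and for CGRP were not separated.

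Calcb, which encodes βCGRP, was about as even. It was at 106.45, 115.05 and 157.91 FPKM in Sham, 135.11, 101.67 and 146.69 FPKM in CPIP, and 127.27, 146.57 and 116.29 FPKM in CPIP+EA. The lowest and the highest of the 9 values came from CPIP replicate 2 and Sham replicate 3, and the groups overlapped throughout. The log2 fold change was 0.02 for CPIP versus Sham, 0.04 for CPIP+EA versus CPIP and 0.05 for CPIP+EA versus Sham, and the latter values were 0.11 and 0.13 without CPIP+EA replicate 3. Calcb took 12.7% to 16.7% of the summed Calca and Calcb level in a library, with group means of 14.6 ± 1.6%, 15.5 ± 0.555% and 15.7 ± 1.15% in Sham, CPIP and CPIP+EA (SD, n = 3 each). These shares did not differ detectably between the groups (exact permutation test over 280 divisions of the libraries, p = 0.514). The genes are paralogs, and short reads from the stretches that they share could be split between them.

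Tac1, the precursor of substance P and neurokinin A, was lower in CPIP than in Sham by a margin near the spread between libraries. Its levels were 236.96, 221.35 and 254.84 FPKM in Sham, 218.16, 177.36 and 212.21 FPKM in CPIP, and 218.46, 228.24 and 189.71 FPKM in CPIP+EA. All CPIP libraries lay under all Sham libraries, whereas CPIP+EA replicate 2 lay inside the Sham range. The log2 fold change for CPIP versus Sham was −0.23 (95% interval −0.47 to −0.00010), with an unadjusted limma p of 0.0499 and an adjusted p of 0.576. Without CPIP replicate 2 it was −0.14, and the unadjusted limma p was under 0.05 in 9 of 21 alternatives. With the libraries centred on the 8 pan-neuronal markers it was −0.16, with an unadjusted limma p of 0.223. CPIP+EA differed from CPIP by a log2 fold change of 0.07 (95% interval −0.17 to 0.30) and from Sham by −0.17 (limma adjusted p = 0.573). These were 0.15 and −0.09 without CPIP+EA replicate 3.

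Sst, the precursor of somatostatin, an inhibitory peptide, showed no detectable difference. Sst was at 76.42, 72.09 and 95.69 FPKM in Sham, 73.4, 83.26 and 82.28 FPKM in CPIP, and 96.02, 71.29 and 61.58 FPKM in CPIP+EA. The CPIP values lay within the Sham range, and CPIP+EA held both the highest and the lowest library of all 9. The lowest was replicate 3, the library with high blood cell markers. The log2 fold change was −0.02 for CPIP versus Sham and −0.08 for CPIP+EA versus CPIP, and the latter was 0.06 without that library. For CPIP+EA versus Sham it was −0.11, and 0.03 without that library. The part of the blood cell content in these values was not tested.

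Nppb, the precursor of natriuretic peptide B, was low and uneven. It was at 0.37, 1.52 and 2 FPKM in Sham, 1.84, 3.04 and 2.22 FPKM in CPIP, and 2.15, 7.8 and 1.53 FPKM in CPIP+EA. CPIP+EA replicate 2 was the highest library and Sham replicate 1 the lowest, and every pair of groups overlapped. The log2 fold change was 0.79 for CPIP versus Sham (95% interval −0.43 to 2.00), and 0.33 without Sham replicate 1. For CPIP+EA versus Sham it was 1.12 (95% interval −0.10 to 2.33), with an unadjusted limma p of 0.0675 and an adjusted p of 0.451. It was 0.66 without Sham replicate 1, 0.50 without CPIP+EA replicate 2 and 1.52 without CPIP+EA replicate 3. For CPIP+EA versus CPIP it was 0.33, and −0.28 without CPIP+EA replicate 2, so that a single library set its direction. Without CPIP+EA replicate 3 it was 0.73.

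Nmb, the precursor of neuromedin B, had the smallest p-value of the members. Its levels were 59.11, 72.13 and 79.93 FPKM in Sham, 56.44, 50.18 and 49.11 FPKM in CPIP, and 51.56, 59.64 and 47.71 FPKM in CPIP+EA. Every CPIP library was under the lowest Sham library, and CPIP+EA replicate 2 exceeded that library by less than 1 FPKM. The means were 70.4 ± 10.5 FPKM in Sham, 51.9 ± 3.96 FPKM in CPIP and 53.0 ± 6.09 FPKM in CPIP+EA (SD, n = 3 each). For CPIP versus Sham the fold change was 0.744 (95% interval 0.616 to 0.898), a log2 fold change of −0.43 ± 0.12 (SE), with an unadjusted limma p of 0.00617 and an adjusted p of 0.243. For CPIP+EA versus Sham it was 0.757 (95% interval 0.627 to 0.914), with an unadjusted p of 0.00862 and an adjusted p of 0.203 in the same limma fit. Without CPIP+EA replicate 3 that log2 fold change was −0.33, in place of −0.40. CPIP+EA differed from CPIP by a log2 fold change of 0.03 (95% interval −0.25 to 0.30), and by 0.10 without CPIP+EA replicate 3. The CPIP versus Sham and CPIP+EA versus Sham values rest on the same Sham libraries. With the libraries centred on the 8 pan-neuronal markers, the Nmb log2 fold changes were −0.35 and −0.35, with unadjusted limma p-values of 0.0595 and 0.0616. In whole ganglia, fewer Nmb-positive cells and less Nmb RNA per cell cannot be told apart.

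Grp, which encodes gastrin-releasing peptide, was listed at 0 in all 9 libraries, and no fold is given for it.

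In CPIP versus Sham, 2 of the 6 tested members had an unadjusted p under 0.05, both lower in CPIP (Tac1 and Nmb), beside 8.66% of all genes tested and 4.06% in that direction. The same 2 members were the ones whose libraries did not overlap between these groups, beside 15.9% of all genes tested and 7.9% with CPIP lower. Between CPIP+EA and CPIP, 0 of 6 had an unadjusted limma p under 0.05, beside 4.29% of all genes, and 0 of 6 did not overlap, beside 8.23%. Between CPIP+EA and Sham, Nmb was the 1 of 6 with an unadjusted p under 0.05, lower in CPIP+EA, beside 12.2% of all genes and 5.63% in that direction, and 0 of 6 did not overlap, beside 16.2%. The threshold for a differentially expressed gene was passed by 0.355%, 0% and 0.483% of all genes in the 3 comparisons, in the same order. The median log2 fold change of the tested members was −0.06, 0.03 and −0.09, where that of all genes was −0.01, 0.01 and 0.00. Without CPIP+EA replicate 3 the members' medians for CPIP+EA versus CPIP and versus Sham were 0.13 and 0.04, and Nppb and Nmb had an unadjusted p under 0.05 in the latter, Nppb higher and Nmb lower, beside 13.8% of all genes without that library.

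**Figure D2:**
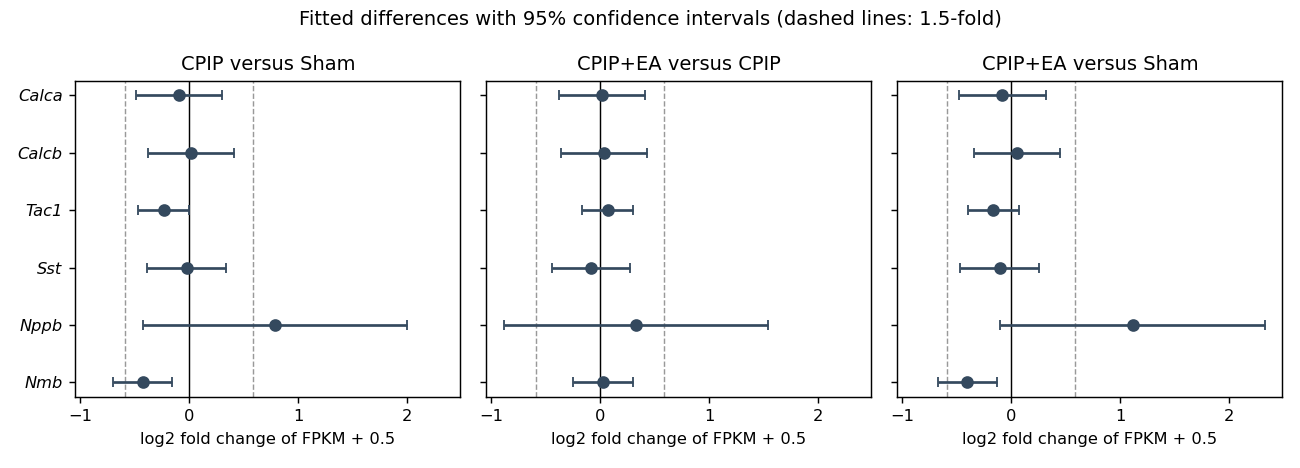
Log2 fold changes of the tested members on the log2(FPKM + 0.5) scale for each of the 3 comparisons, with 95% intervals from the limma fit. The Nmb intervals for CPIP versus Sham and CPIP+EA versus Sham lie under 0, the Tac1 interval for CPIP versus Sham ends at −0.00010, and every interval for CPIP+EA versus CPIP spans 0.

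Calca varied with Calcb over the libraries. Over the 9 libraries, Calca and Calcb had a Pearson's r of 0.81 (exact permutation p = 0.00957, adjusted over 15 pairs of members 0.0718) and a Spearman's rho of 0.92 (exact permutation p = 0.00131, adjusted 0.0197). Without the 2 libraries farthest from the Calca median, CPIP replicate 2 and CPIP+EA replicate 3, r was 0.74. Calca and Tac1 had an r of 0.85 (adjusted exact permutation p = 0.0513) and a rho of 0.62 (adjusted 0.429), and r was 0.52 without the same libraries. Both genes were low in CPIP replicate 2 and CPIP+EA replicate 3, and leaving these out also narrows the range of Calca. Tac1 and Nmb had an r of 0.75 (adjusted exact permutation p = 0.104) and a rho of 0.87 (adjusted 0.0338), and r was 0.62 without the 2 libraries farthest from the Tac1 median. The permutations moved libraries across the groups, so a group difference shared by both genes of a pair enters these p-values. When each library was expressed as its deviation from its group mean, r was 0.85 for Calca and Calcb, 0.98 for Calca and Tac1 and 0.52 for Tac1 and Nmb, and it was 0.83 for Calcb and Tac1, 0.80 for Nppb and Nmb and 0.69 for Calcb and Nmb. Calcb and Tac1 had an r of 0.58 over the 9 libraries (adjusted exact permutation p = 0.384), a rho of 0.35, and an r of −0.02 without the 2 libraries farthest from the Calcb median. Over the 9 libraries, Nppb and Nmb had an r of −0.07 and a rho of −0.17, and Calcb and Nmb 0.33 and 0.23. Without the 2 libraries farthest from the median of the first-named gene, r was −0.32 for Nppb and Nmb and −0.28 for Calcb and Nmb. The libraries share FPKM scaling and tissue content, and the part of either in these relations was not tested.

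**Figure D3:**
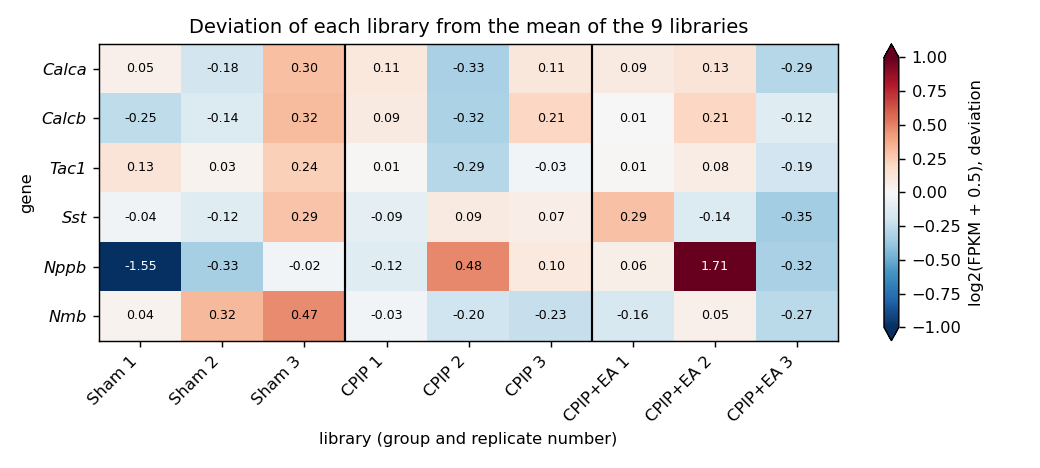
Deviation of each library (columns) from the mean of the 9 libraries for each tested member (rows), in units of log2(FPKM + 0.5), with red above and blue below that mean. Calca, Calcb and Tac1 lie under the mean together in CPIP replicate 2 and CPIP+EA replicate 3, and Nppb has the widest range, from −1.55 to 1.71.

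Among the 13914 genes with a mean of at least 1 FPKM, the genes whose profile over the 9 libraries was most like that of a member had a Pearson's r between 0.90 and 0.99, taken as the highest of many. For Calca these were LOC100360573, Msto1 and Ap3s2 (r = 0.95, 0.94 and 0.93), and for Calcb they were Zfp428, Rc3h1 and Nudt16l1 (r = 0.95, 0.95 and 0.95). For Tac1 they were Slc25a40, Ephx2 and Cdr1 (r = 0.99, 0.97 and 0.96), and for Sst they were LOC102548730, Cul2 and Kirrel3 (r = 0.95, 0.94 and 0.90). For Nppb they were Gsto1, Ndufv3 and Ccdc25 (r = 0.95, 0.94 and 0.94), and for Nmb they included Trappc3l and Ift80 (r = 0.97 and 0.96). No member was among the 3 genes most like another member.

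Promoter sequence from RefSeq (assembly GRCr8) was read for 6 of the 7 members, all but Calcb, over 250 bases before to 50 bases from each gene's start. These stretches are shown because cAMP response elements (CRE), bound by the activity-dependent factor CREB, and E-boxes are known in promoters of several neuropeptide genes. They come from the tested members that held a searched motif, and capitals mark it.
Calca, GRCr8 chr1:178317609-178317668, minus strand: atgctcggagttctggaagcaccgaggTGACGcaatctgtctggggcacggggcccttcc
Tac1, GRCr8 chr4:36645499-36645528, plus strand: tggggagagtgtCACGTGgctctccaggct
Sst, GRCr8 chr11:90461537-90461566, plus strand: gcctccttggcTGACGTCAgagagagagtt
Nmb, GRCr8 chr1:144281546-144281575, minus strand: catgccaggttgCACGTGactatagtaggt

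Sst held the full CRE, TGACGTCA, which was present in 1.91% of 27457 promoter windows of the same length. Calca held the CRE half-site TGACG (every motif was searched on both strands, and this one is contained in the full CRE), which was present in 22% of the windows, and Tac1 held it farther upstream, outside the stretch shown. Grp, which was not tested, held the half-site as well. Tac1 and Nmb each held the E-box CACGTG, which was present in 6.65% of the windows. A match describes these letters only, and binding was not measured here.

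The receptors of the 7 peptides did not pass the threshold in any comparison. Of the 20 receptor and partner genes, 15 were tested. In CPIP versus Sham, 5 were higher and 10 lower, with a median log2 fold change of −0.07, and 1 of 15 had an unadjusted p under 0.05, where 8.66% of all genes did. That gene was Sstr3, a somatostatin receptor, at 0.2, 0.11 and 0.2 FPKM in Sham and 0.44, 0.49 and 0.53 FPKM in CPIP (log2 fold change 0.56, limma adjusted p = 0.0787). The Sstr3 levels were all under 1 FPKM, where the added 0.5 draws a log2 fold change toward 0. Over 20 alternatives the Sstr3 value was 0.35 to 1.14. Ramp2, a partner of Calcrl that makes it an adrenomedullin receptor, had the second smallest p of the list, with means of 52.0 ± 7.58 FPKM in Sham and 44.3 ± 2.55 FPKM in CPIP (SD, n = 3 each). The CGRP receptor Calcrl was at 6.11 ± 0.913, 5.67 ± 0.662 and 5.51 ± 1.21 FPKM in Sham, CPIP and CPIP+EA, and its partner Ramp1 was at 12.6 ± 4.31, 12.0 ± 2.15 and 10.3 ± 5.02 FPKM (SD, n = 3 each). The substance P receptor Tacr1 stood under 1 FPKM in every library. For CPIP+EA versus CPIP the smallest p-values belonged to Nmbr, the neuromedin B receptor, at 0.443 against 0.287 FPKM, and to the somatostatin receptor Sstr4, at 0.607 against 0.427 FPKM (limma adjusted p = 0.996 each). For CPIP+EA versus Sham they belonged to Sstr3 and Sstr4 (limma adjusted p = 0.116 and 0.335). There, 2 of 15 were higher at an unadjusted p under 0.05 (Sstr3 and Sstr4) and 1 lower (Ramp2), beside 12.2% of all genes.

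Of the 17 genes that make and pack peptides, among them the convertases Pcsk1 and Pcsk2, the carboxypeptidase Cpe and the amidating enzyme Pam, only Vgf passed the threshold, in both comparisons with Sham. Vgf, which encodes a granin-like protein of dense-core vesicles, was at 15.4, 14.19 and 11.18 FPKM in Sham, 30.14, 36.98 and 38.56 FPKM in CPIP, and 41.64, 32.75 and 30.64 FPKM in CPIP+EA. All CPIP and CPIP+EA libraries lay above all Sham libraries. Vgf rose in CPIP versus Sham by a log2 fold change of 1.35 (limma adjusted p = 0.00374; 0.000246 to 0.0258 over the alternatives) and in CPIP+EA versus Sham by 1.33 (limma adjusted p = 0.0033). The call in CPIP versus Sham was lost with the replicate number as a block, when any Sham library was left out, and without CPIP replicate 2 or 3 or CPIP+EA replicate 2. Over all 21 alternatives the log2 fold change there was 1.22 to 1.45. The call in CPIP+EA versus Sham was lost with the block, in a fit of these 2 groups only, and without Sham replicate 2 or 3 or CPIP+EA replicate 1 or 2. In CPIP versus Sham, 8 of the 17 were higher and 9 lower, with a median of −0.11. Between CPIP+EA and CPIP, 0 of 17 had an unadjusted limma p under 0.05, beside 4.29% of all genes. The smallest p-values were those of Cpe, at 178 ± 7.50 against 162 ± 13.2 FPKM, and of the convertase chaperone Scg5, at 150 ± 0.809 against 140 ± 5.5 FPKM (SD, n = 3 each). Counted by direction in this comparison, 8 of the 17 stood higher and 9 lower (median −0.01). When CPIP+EA replicate 3 was left out, 14 stood higher and 3 lower (median 0.09). Of the 17, 1 was then lower at an unadjusted p under 0.05, beside 4.29% of all genes in that direction.

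None of the other precursors of the same families, 7 tested, passed the threshold. The nearest was Iapp, which encodes amylin, a relative of CGRP, at 16.4 ± 0.655 FPKM in Sham, 17.2 ± 2.13 FPKM in CPIP and 12.3 ± 2.12 FPKM in CPIP+EA (SD, n = 3 each). Its log2 fold change was −0.47 in CPIP+EA versus CPIP (limma adjusted p = 0.996, unadjusted 0.00405). In CPIP+EA versus Sham, 3 of the 7 had an unadjusted p under 0.05, all lower, beside 5.63% of all genes in that direction. Without CPIP+EA replicate 3, 2 of 7 did, beside 6.62% of all genes in that direction. The 3 were Iapp (log2 fold change −0.41, limma adjusted p = 0.202) and the natriuretic peptide precursors Nppc (−0.62, limma adjusted p = 0.213) and Nppa (−0.35, limma adjusted p = 0.381). Nppa averaged 6.48 FPKM in Sham and 5.01 FPKM in CPIP+EA. Nppc was near the lower end of the scale, at 0.36, 0.18 and 0.37 FPKM in Sham and at 0.06, 0 and 0 FPKM in CPIP+EA. Over 20 alternatives its log2 fold change between these groups was −1.75 to −0.35. In CPIP versus Sham the smallest p-values were those of Nppc and of the tachykinin precursor Tac4 (limma adjusted p = 0.65 and 0.921). Of 8 peptidases that degrade neuropeptides, 0 passed the threshold in any comparison. The smallest p-values among them were those of Prep and Ece1 in CPIP versus Sham and in CPIP+EA versus CPIP, and those of Ece1 and Dpp4 in CPIP+EA versus Sham, where Ece1, which splits several peptides in endosomes, was at 26.9 ± 0.391 FPKM in Sham and 23.8 ± 2.26 FPKM in CPIP+EA (SD, n = 3 each, limma adjusted p = 0.388). In CPIP+EA versus CPIP, 0 of 8 had an unadjusted limma p under 0.05 (median −0.12), and 3 of 8 did when CPIP+EA replicate 3 was left out, all lower (median −0.21), beside 4.29% of all genes in that direction. Dpp4, which trims peptides from their amino end, had a log2 fold change of −0.46 in CPIP+EA versus Sham, and of −0.83 without that library.

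Of 6 other genes of itch neurons, Nts passed the threshold, in both comparisons with Sham. Nts, which encodes neurotensin, was at 0.7, 0.94 and 0.8 FPKM in Sham, 2.98, 2.22 and 1.97 FPKM in CPIP, and 2.42, 2.35 and 2.61 FPKM in CPIP+EA. All CPIP and CPIP+EA libraries lay above the Sham libraries, at levels within the range of Nppb. Nts rose in CPIP versus Sham by a log2 fold change of 1.13 (limma adjusted p = 0.00725; 0.00594 to 0.0473 over the alternatives) and in CPIP+EA versus Sham by 1.18 (limma adjusted p = 0.00476). The Nts call in CPIP versus Sham was lost when any of the 9 libraries was left out, with no filter, with the replicate block, in a fit of the 2 groups only and when centred on the pan-neuronal markers. Over all 21 alternatives its log2 fold change ranged from 0.89 to 1.43. The call in CPIP+EA versus Sham was lost with the block, with that centring, and without any library other than CPIP replicate 1 or 3. Htr1f and Cysltr2, receptors of the same itch neurons, had the smallest p-values of this list in CPIP+EA versus CPIP, at 0.38 against 0.513 FPKM and 7.0 against 8.33 FPKM (limma adjusted p = 0.996 each). The log2 fold change of Cysltr2 was −0.26 there, and −0.12 without CPIP+EA replicate 3. Htr1f was at 0.13, 0.13 and 0.22 FPKM in Sham and 0.61, 0.49 and 0.44 FPKM in CPIP, without overlap (log2 fold change 0.62, limma adjusted p = 0.225). Cysltr2 was lower in CPIP+EA than in Sham by a log2 fold change of −0.63 (limma adjusted p = 0.273).

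**Figure D4:**
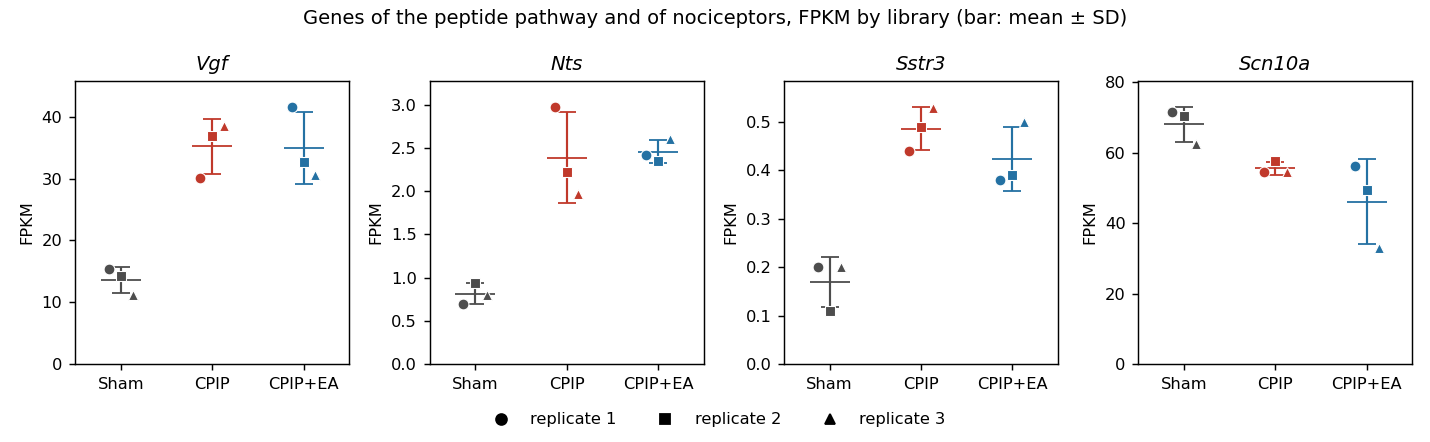
FPKM by library of Vgf, Nts, Sstr3 and Scn10a in the 3 groups, with the mean and SD of 3 libraries as bars and linear axes from 0. The CPIP and CPIP+EA values of Vgf, 30.14 to 41.64 FPKM, lie above the Sham values, 11.18 to 15.4 FPKM, and Scn10a is lowest in CPIP+EA replicate 3, at 32.81 FPKM.

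Channels and regulators that mark nociceptors were all lower on average in CPIP than in Sham, 8 of 8, with a median log2 fold change of −0.20, although none passed the threshold and 0 of 8 had an unadjusted limma p under 0.05. When CPIP+EA replicate 3, whose spread enters the shared fit, was left out, 3 of 8 did, all lower, beside 4.96% of all genes in that direction. Among them 3 did not overlap between these groups, the heat- and capsaicin-gated channel Trpv1, the sodium channel Scn10a and the transcription factor Prdm12, where 15.9% of all genes did not overlap and 7.9% were lower in CPIP without overlap. Between CPIP+EA and Sham, 8 of 8 were again lower, with a median of −0.26, and 3 had an unadjusted p under 0.05, where 5.63% of all genes were lower at that p. Without CPIP+EA replicate 3, 7 of 8 were lower, with a median of −0.06, and 2 had an unadjusted p under 0.05, beside 6.62% of all genes lower at that p. Between CPIP+EA and CPIP, 7 of 8 were lower (median −0.10), whereas 6 of 8 were higher (median 0.05) when that library was left out, so that its values set the direction. Scn10a was at 71.52, 70.28 and 62.32 FPKM in Sham, 54.39, 57.75 and 54.41 FPKM in CPIP, and 56.22, 49.36 and 32.81 FPKM in CPIP+EA. Its log2 fold change for CPIP+EA versus Sham was −0.59 (limma adjusted p = 0.173), and −0.36 without CPIP+EA replicate 3, the lowest library. Pan-neuronal markers were mixed, with 5 of 8 lower in CPIP than in Sham, 3 higher and a median of −0.23. Their summed level was 10077 to 12257 FPKM in Sham, 10261 to 10789 FPKM in CPIP and 9765 to 11863 FPKM in CPIP+EA. The part of neuronal content in the lower Nmb and Tac1 levels was not tested.

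Other cells of the ganglion varied between libraries without a marker past the threshold. The summed Schwann cell markers, 4 of 4 tested, ranged from 6907 to 10967 FPKM in Sham, 6564 to 11744 FPKM in CPIP and 4591 to 9139 FPKM in CPIP+EA. All 4 were lower in CPIP+EA than in CPIP (median −0.53). The fibroblast markers, 4 of 4 tested, ranged from 787 to 1070, 671 to 882 and 440 to 904 FPKM. All 4 were lower in each comparison, and in CPIP+EA versus Sham (median −0.60) 3 of them had an unadjusted p under 0.05, beside 5.63% of all genes in that direction, and 2 did not overlap, beside 16.2% of all genes in either direction. The part of these cells in the nociceptor and peptide values was not tested. The neutrophil markers, 4 of 4 tested, ranged from 42.4 to 122, 26.5 to 208 and 56.2 to 516 FPKM, and the erythroid markers, 3 tested, from 448 to 1403, 245 to 794 and 249 to 2347 FPKM. Satellite glia, macrophage and endothelial markers were tested in full, 4, 4 and 3 genes, and 0 passed the threshold. In CPIP+EA versus CPIP, the satellite glia marker Fabp7 was higher (log2 fold change 0.71) and Glul lower (−0.21). Each had an unadjusted limma p under 0.05, beside 4.29% of all genes, and no overlap, beside 8.23%. In CPIP+EA versus Sham, Glul was lower and the macrophage marker Aif1 higher at that p, beside 12.2% of all genes.

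**Figure D5:**
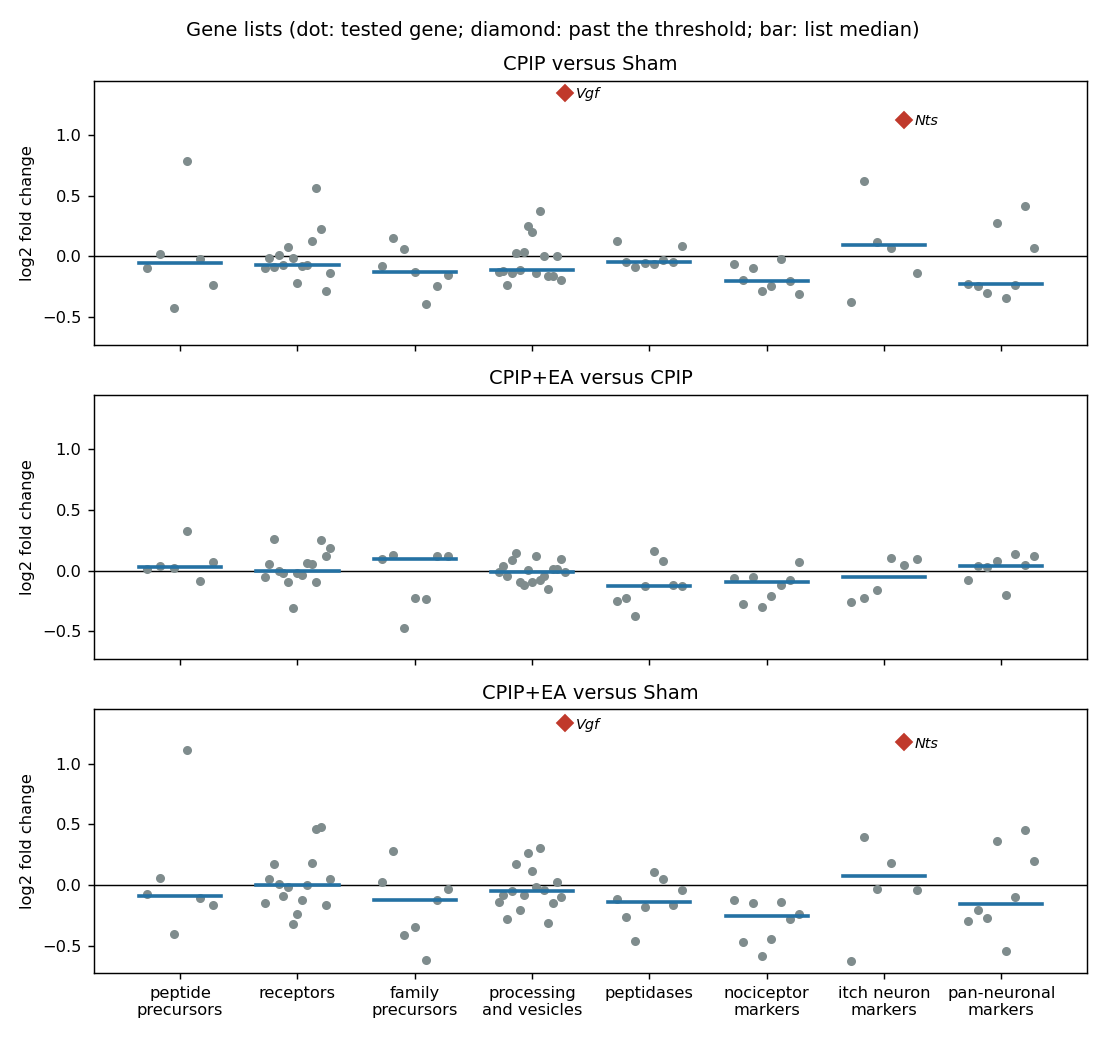
Log2 fold changes of the tested genes of each list for the 3 comparisons, a dot per gene, a diamond for a gene past the threshold and a bar for the median of the list. Vgf, at 1.35 in CPIP versus Sham, and Nts, at 1.13, stand above the rest of their lists, and all 8 nociceptor markers lie under 0 in that comparison.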

How the data were processed

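RNA-Seq libraries from the ipsilateral DRGs of 9 rats, 3 per group, were analysed. Samples were grouped by their repository titles. The authors filtered reads of 50 bases with SOAPnuke 1.5.2 and deposited an FPKM value, rounded to 2 decimals, for every gene in every library. The aligner, genome build and annotation are not given in the sources used here. The authors also deposited, for each pair of groups, a log2 ratio, a P-value and a Q-value (9 columns), which hold their own comparisons and were not used.

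Log2(FPKM + 0.5) was tested with limma 3.58.1 in R 4.3.3, with 9 libraries in 1 fit, no covariate and a mean-variance trend. The added 0.5 draws log2 fold changes toward 0 in genes of low level, among them Sstr3, Htr1f, Nppc, Nts and Nppb. Genes with a mean of at least 0.1 FPKM entered, 17187 of 20413, and two-sided p-values were corrected over all of these by the Benjamini-Hochberg method. The threshold asked for an adjusted p below 0.01 together with a fold of 1.5 or more, or of 0.667 or less. The fit was tested on simulated data. The text names the 7 members, list genes past the threshold (or else the 2 with the smallest p-values), and the 3 genes most like each member, 1 of which is not reported here; genes outside this rule were chosen after their values were seen. Members and lists were chosen with earlier results of these data known. Alternatives changed the pseudocount, filter, scaling, trend, blocking and libraries used. Python 3.11.15, numpy 2.4.6, pandas 2.3.3, scipy 1.17.1 and matplotlib 3.10.9 were used. Read counts were not used, so that depth limits could not be computed. The limma p-values rest on the spread between rats, 3 per group, pooled over the 3 groups and moderated by that of other genes. Promoter sequences came from RefSeq, assembly GRCr8.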

Additional observations from a re-analysis of the deposited data

How the results depend on the processing

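The threshold was passed by 0 members in each of the 3 comparisons under every alternative run. Of 378 recomputed member log2 fold changes, 348 kept their direction and 30 turned it, and 0 came past the threshold. In CPIP versus Sham, the number of members with an unadjusted limma p under 0.05 was 2, 1 with no filter, on the TPM scale, with median centring, without the trend or with the replicate block, and 0 when centred on the pan-neuronal markers, an alternative chosen after seeing the data. Leaving out each library gave 1 to 2. In CPIP+EA versus Sham, that number was 1, 2 with the replicate block and 0 when centred on the pan-neuronal markers, and 1 to 2 with a library left out. Nmb had an unadjusted p under 0.05 in 20 of 21 alternatives in both comparisons with Sham, with adjusted p-values of 0.112 to 0.841 in CPIP versus Sham and 0.0969 to 0.665 in CPIP+EA versus Sham, and Tac1 did in 9 of 21 in CPIP versus Sham.

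Small log2 fold changes turned direction. In CPIP versus Sham, centring on the pan-neuronal markers gave 0.0512 for Sst and 0.0155 for Ece1. In CPIP+EA versus CPIP, Calca was −0.0506 with quantile normalization, −0.0058 on the TPM scale and −0.0083 when centred on the pan-neuronal markers, and Nmb was −0.0050 with quantile normalization. With each library left out, the CPIP versus Sham values ranged from −0.213 to 0.0526 for Calca, −0.0934 to 0.190 for Calcb and −0.10 to 0.10 for Sst. The CPIP+EA versus CPIP values ranged from −0.13 to 0.15 for Calca, −0.12 to 0.14 for Calcb, −0.0248 to 0.146 for Tac1, −0.261 to 0.0569 for Sst, −0.28 to 0.73 for Nppb and −0.0624 to 0.0971 for Nmb. The CPIP+EA versus Sham values ranged from −0.200 to 0.0524 for Calca, −0.0581 to 0.225 for Calcb and −0.284 to 0.0343 for Sst. The cause was not tested.

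Vgf was past the threshold in 14 of 21 alternatives in CPIP versus Sham and in 15 of 21 in CPIP+EA versus Sham, and Nts in 8 and 12 of 21. Same-numbered libraries of different groups had an r of deviations of −0.24 to 0.30, and differently numbered ones −0.22 to 0.28. The best match shared the number in 4 of 18 cases, so no pairing by number was seen. With 3 libraries per group, this check cannot tell whether same-numbered rats were handled together. The replicate block moved the genes past the threshold from 61 to 26 in CPIP versus Sham and from 83 to 42 in CPIP+EA versus Sham, left 0 in CPIP+EA versus CPIP, and took Vgf and Nts out of them. With 3 libraries per group an exact test of a single gene cannot reach a p under 0.1.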
